A study of Mus musculus with 6 samples.

Results

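The genes that set the pace of the G1 phase of the cell cycle, 10 in all, were read across intestinal organoids given DM-aKG and their controls. They were picked by symbol from the deposited expression table and comprise the D cyclins Ccnd1, Ccnd2 and Ccnd3, the E cyclins Ccne1 and Ccne2, the kinases Cdk4 and Cdk6, and the inhibitors Cdkn1b, Cdkn2a and Cdkn2b. All 10 were found among the 24956 genes of the table. RNA came from 3 cultures treated with DM-aKG, the dimethyl ester of α-ketoglutarate, and from 3 control cultures, and every culture, controls included, was of Apc Min genotype. Apc Min mice carry a truncating allele of Apc, a gene that restrains β-catenin, and organoids are epithelial cells grown in medium as closed structures. No source used here gives what the controls received, the dose, the duration, the age of the mice or whether the cultures came from separate mice, so p-values measure the spread between these samples, which may be technical. Expression is in RPKM, reads per kilobase of transcript scaled to the reads of the library, as the authors deposited it, which allows levels of different genes to be set side by side.

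The D cyclins bind CDK4 and CDK6, and the active complexes phosphorylate the retinoblastoma protein, which then releases E2F factors. E2F turns on the E cyclins and the genes of DNA synthesis, and cyclin E with CDK2 completes the phosphorylation. INK4 proteins, encoded by Cdkn2a and Cdkn2b among others, bind CDK4 and CDK6 and keep the D cyclins out, whereas p27, the product of Cdkn1b, belongs to the CIP and KIP family and holds cyclin E with CDK2 inactive. In the mouse intestine the D cyclins act downstream of Wnt signalling in crypt progenitors, and Cdk4 is a known target of the Myc protein.

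Depth, estimated from the lowest expression values, came to 32700000 to 34200000 reads per library. The 7 epithelial markers (Epcam, Cdh1, Krt8, Krt18, Krt19, Vil1 and Cdx2) summed to 3418 to 4326 RPKM in DM-aKG and 2593 to 2648 RPKM in control libraries. They did not move together: Krt8, Krt18, Krt19, Cdh1 and Vil1 rose, whereas Epcam fell to 334 ± 7.12 RPKM in DM-aKG, against 421 ± 4.48 RPKM in control (limma, adjusted p = 4.19e-04), and Cdx2 fell to 40.6 ± 8.90 RPKM in DM-aKG, against 70.3 ± 1.99 RPKM in control (limma, adjusted p = 0.00146; SD, n = 3 each). The 11 fibroblast and muscle markers summed to 1.1 to 1.58 RPKM in DM-aKG and 0.64 to 0.81 RPKM in control libraries, with Col3a1, Dcn and Lum at 0 in all 6. The 9 immune markers summed to 2.30 to 3.57 RPKM in DM-aKG and 1.85 to 2.01 RPKM in control libraries, and Ptprc did not exceed 0.01 RPKM. The 7 endothelial and glial markers summed to 1.3 to 1.43 RPKM in DM-aKG and 0.59 to 0.75 RPKM in control libraries, with Cdh5 and Kdr at 0. Not every marker of these lists was near 0. Cd68 reached 2.31 RPKM in DM-aKG replicate 3 and did not pass (limma, adjusted p = 0.052). Itgam was at 0.92 to 1.23 RPKM in DM-aKG and 0.52 to 0.62 RPKM in control. S100b was at 0.77 to 0.90 RPKM in DM-aKG and 0.21 to 0.33 RPKM in control. Pdgfrb, Pecam1, Csf1r and Tek were also higher without overlap, at lower levels, whereas Lyz2 was lower without overlap. DM-aKG replicate 1 stood apart from the other DM-aKG libraries in Paneth cell genes (secretory cells of the crypt base). Lyz1, Defa17, Defa24, Defa30, Defa22, Itln1, Mmp7 and Ang4 summed to 1695 RPKM in DM-aKG replicate 1 and to 745 and 717 RPKM in DM-aKG replicates 2 and 3, against 2235, 2922 and 2319 RPKM in the controls. In RNA from whole cultures, fewer cells of a type and less RNA per cell cannot be told apart.

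The called cyclin genes were higher and the kinase genes lower in DM-aKG organoids. Ccnd2, Ccne1 and the inhibitor gene Cdkn2b rose, whereas Cdk4, Cdk6 and the inhibitor gene Cdkn1b fell. Ccnd1, Ccnd3 and Ccne2 did not pass the test, and Cdkn2a lay below the filter of a mean of 1 RPKM over the 6 libraries. A gene passed at a Benjamini-Hochberg adjusted p under 0.05 in limma, a linear model fitted to log2(RPKM + 0.5) over the 10852 genes above the filter. The 6 called members of 9 tested stand against 55.6% of all tested genes, so this share lies near the background. The 3 higher members are set against 30.9% of tested genes that were higher, and the 3 lower members against 24.7% that were lower. The balance over all genes was 3354 higher and 2679 lower. It turned over to 2790 higher and 3340 lower under median centring and to 2861 higher and 3190 lower under quantile normalization. The members stayed at 3 higher and 3 lower under both. With each library rescaled to an equal RPKM sum it did not turn over, at 3809 higher and 2254 lower genes. The members were then 3 higher and 2 lower. In 7 of the 9 tested members the 3 DM-aKG libraries lay wholly above or below the 3 controls, as they did in 64.2% of tested genes. With DM-aKG replicate 1 left out, Ccnd1 and Ccnd3 also passed, which gave 5 higher and 3 lower members, and calls over all genes were also more numerous then, at 3674 higher and 3188 lower.

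**Figure D1:**
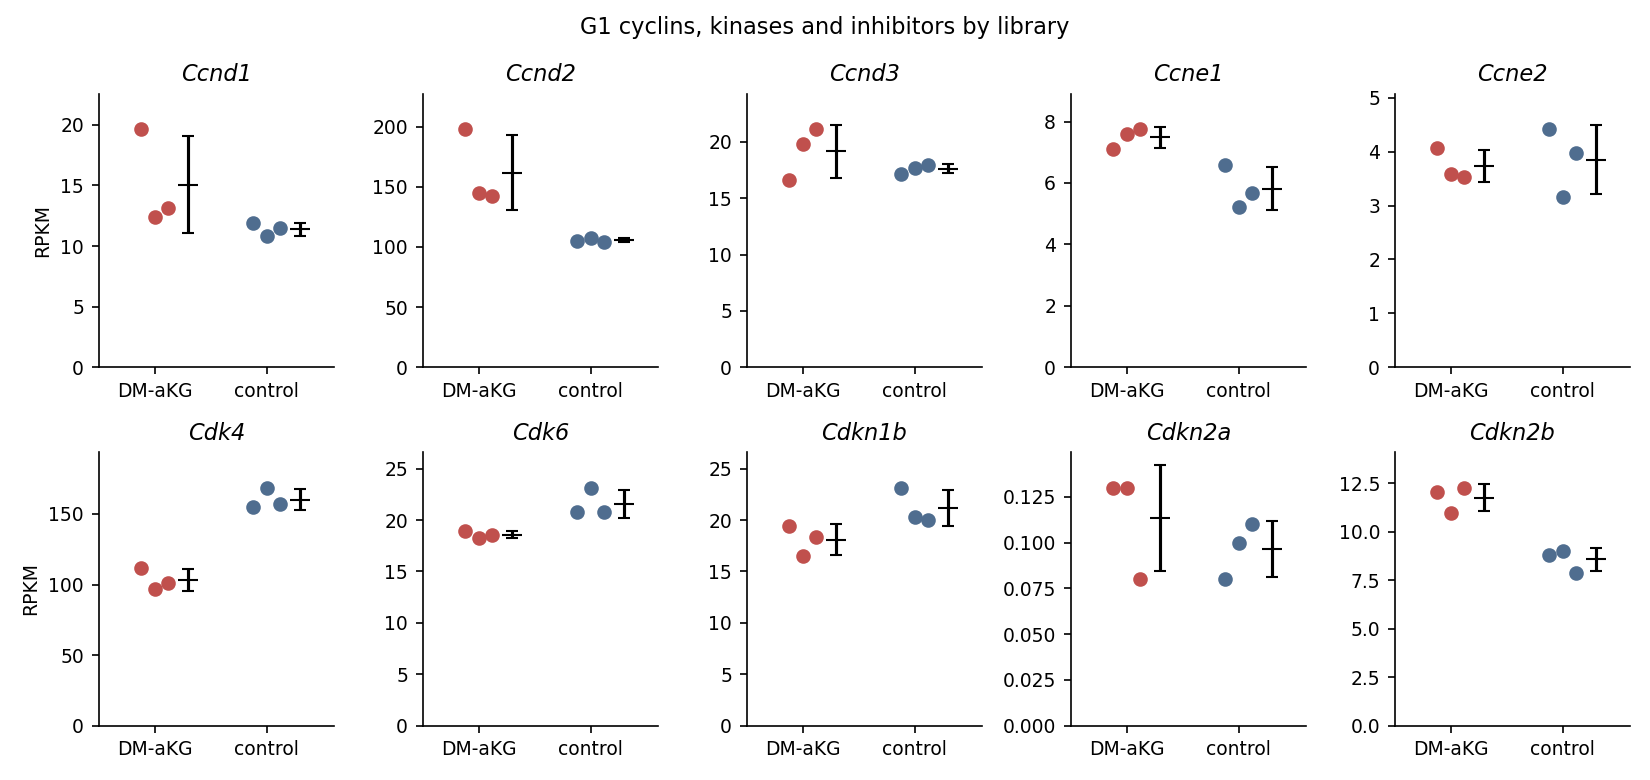
RPKM of each of the 10 genes (vertical axes, from 0) in the 3 DM-aKG and 3 control libraries (points, replicates 1 to 3 from left to right), with the mean and SD beside them. Ccnd2 lies at 143 to 198 RPKM in DM-aKG and at 105 to 107 RPKM in control, while Cdk4 lies at 96.6 to 112 RPKM in DM-aKG and at 155 to 169 RPKM in control.

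Ccnd2 was by far the most abundant D cyclin transcript and rose in DM-aKG. It stood at 198, 145 and 143 RPKM in DM-aKG replicates 1 to 3, against 105, 107 and 105 RPKM in the controls. Every DM-aKG library lay above every control, and replicate 1 lay above the other 2. The mean was 162 ± 31.3 RPKM in DM-aKG and 106 ± 1.513 RPKM in control (SD, n = 3 each), a log2 fold change of 0.60 ± 0.12 (SE) with an adjusted p of 0.00349 in limma, and 11.7% of tested genes changed by at least as much. Without DM-aKG replicate 1 the rise of Ccnd2 was 0.44 on the log2 scale (limma, adjusted p = 2.84e-05). Ccnd2 lies on chromosome 6 of GRCm38, 127125162 to 127152193 (minus strand).

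Ccnd1, whose cyclin is the D type most often amplified in human tumours, was at 19.6, 12.4 and 13.1 RPKM in DM-aKG and at 11.9, 10.8 and 11.5 RPKM in control. The groups did not overlap, but replicate 1 held most of the difference. Its log2 fold change was 0.36 ± 0.15 with a 95% interval of 0.0043 to 0.71 (limma, adjusted p = 0.0784). It was 0.16 without DM-aKG replicate 1, where the gene passed (limma, adjusted p = 0.0336), and 0.48 without DM-aKG replicate 2 (limma, adjusted p = 0.0419). Ccnd3, which is broadly expressed in differentiated as well as dividing cells, was at 16.6, 19.8 and 21.1 RPKM in DM-aKG and at 17.2, 17.7 and 18.0 RPKM in control. Here replicate 1 went the other way, below all controls, and replicates 2 and 3 lay above them. The log2 fold change of Ccnd3 was 0.11 with a 95% interval of -0.08 to 0.30 (limma, adjusted p = 0.283), and without DM-aKG replicate 1 it was 0.21 (limma, adjusted p = 0.00486). The Paneth cell sum was highest among DM-aKG libraries in the same replicate 1 in which Ccnd1 and Ccnd2 were highest and Ccnd3 lowest. Between the groups, every control had a higher Paneth cell sum and lower Ccnd1 and Ccnd2 than any DM-aKG library. The part of Paneth cells in these values was not tested. Ccnd1 lies on chromosome 7, 144929931 to 144939925 (minus strand), and Ccnd3 on chromosome 17, 47505051 to 47599691 (plus strand).

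The E cyclins were scarcer, and of this pair Ccne1 rose. Ccne1 was at 7.09, 7.60 and 7.75 RPKM in DM-aKG and at 6.57, 5.21 and 5.67 RPKM in control, without overlap. The mean was 7.48 ± 0.346 RPKM in DM-aKG and 5.82 ± 0.692 RPKM in control (SD, n = 3 each), a log2 fold change of 0.34 ± 0.08 (limma, adjusted p = 0.00925). Ccne2 was at 4.08, 3.58 and 3.54 RPKM in DM-aKG and at 4.42, 3.16 and 3.98 RPKM in control, with the groups interleaved. Its log2 fold change was -0.03 with a 95% interval of -0.29 to 0.23 (limma, adjusted p = 0.825). Ccne1 lies on chromosome 7, 38097984 to 38107534 (minus strand), and Ccne2 on chromosome 4, 11191351 to 11204779 (plus strand).

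Both kinase genes fell. Cdk4 was at 112, 96.6 and 101 RPKM in DM-aKG and at 155, 169 and 157 RPKM in control, so the groups lay apart. The mean was 103 ± 7.63 RPKM in DM-aKG and 160.2 ± 7.35 RPKM in control (SD, n = 3 each); Cdk4 dropped by 0.63 ± 0.06 in log2 (limma, adjusted p = 1.56e-04), and 10.48% of tested genes changed by at least as much. Cdk6 was at 18.9, 18.2 and 18.6 RPKM in DM-aKG and at 20.8, 23.15 and 20.8 RPKM in control. Its groups did not overlap either, and it dropped by 0.21 ± 0.05 in log2 (limma, adjusted p = 0.0113). Cdk4 lies on chromosome 10, 127063534 to 127067920 (plus strand), and Cdk6 on chromosome 5, 3341485 to 3531008 (plus strand). Cdk4 shares 641 exonic bases with Tspan31 on the opposite strand, and no source used here says whether reads were counted by strand. Tspan31, a tetraspanin gene, was at 42.4, 42.2 and 43.3 RPKM in DM-aKG and at 46.25, 47.9 and 47.8 RPKM in control, below Cdk4 in every library. Ccnd1, Ccnd2, Ccnd3, Ccne2 and Cdk6 also share exonic bases with genes on the opposite strand, so reads of the overlaps cannot be assigned with certainty.

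The promoter of Cdk4 is shown because it is rich in E-boxes, the CACGTG sites to which Myc and related factors bind. Promoter sequences from RefSeq (GRCm38.p6) were at hand for 7 of the 10 genes, in 9 windows, and cover the 250 bases before each annotated start, 5′ to 3′ on the strand of the gene. Capitals mark CACGTG, which reads the same on both strands.
Cdk4, chr10:127063285-127063534, plus strand: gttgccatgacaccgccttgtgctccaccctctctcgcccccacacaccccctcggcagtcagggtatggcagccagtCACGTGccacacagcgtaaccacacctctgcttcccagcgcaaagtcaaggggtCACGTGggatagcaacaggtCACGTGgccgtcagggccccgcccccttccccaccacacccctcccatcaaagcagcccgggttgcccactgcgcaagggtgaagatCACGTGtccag
The Cdk4 window holds 4 such sites, with first bases at -172, -118, -98 and -11 relative to the start, and the Cdk6 window holds 1. Of 32851 promoter windows of this length, 6.02% hold at least 1 CACGTG and 7 hold 4 or more. These windows were not matched in GC content, which is 64.4% in the Cdk4 window, for this or any other string. Strings of other kinds were searched too. The Cdk4 window also holds a TCF string at -52, a GC box at -80 and antioxidant response element strings at -243 and -133. TCF strings are in 7.48% of windows, GC boxes in 32.7% and antioxidant response element strings in 10.2%. A match is a description of the letters and says nothing of binding in these cultures.

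The inhibitor genes moved in opposite directions. Cdkn2b, which encodes the INK4 protein p15, was at 12.05, 10.95 and 12.3 RPKM in DM-aKG and at 8.81, 9.02 and 7.89 RPKM in control, with all DM-aKG libraries above all controls. Its mean was 11.8 ± 0.707 RPKM in DM-aKG and 8.57 ± 0.601 RPKM in control (SD, n = 3 each), a log2 fold change of 0.43 ± 0.07 (limma, adjusted p = 0.00120). Cdkn2a, which encodes p16 and, from another first exon, ARF, was nearly silent at 0.13, 0.13 and 0.08 RPKM in DM-aKG and 0.08, 0.10 and 0.11 RPKM in control. The groups overlapped (exact two-sided permutation test over samples, p = 0.6, where 0.1 is the smallest p possible with 3 against 3). At these depths 0.1 RPKM of a 1 kb transcript stands for 3.27 to 3.42 reads, so a small change in Cdkn2a was not detectable. No library exceeded 0.13 RPKM, and a gene total does not separate p16 from ARF. Cdkn1b was at 19.4, 16.5 and 18.4 RPKM in DM-aKG and at 23.15, 20.3 and 20.05 RPKM in control. The groups lay apart by a small margin, and Cdkn1b dropped by 0.22 ± 0.08 in log2 (limma, adjusted p = 0.0395). This call was lost when any library other than DM-aKG replicate 1 was left out (limma, adjusted p = 0.053 to 0.126). Cdkn1b lies on chromosome 6, 134920401 to 134925513 (plus strand).

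Cdkn2a and Cdkn2b are neighbours on the minus strand of chromosome 4, at 89274471 to 89294653 and 89306299 to 89311039, with 11645 bases between them. The promoter of Cdkn2b is printed because it is the INK4 gene of the pair that was expressed and rose. Capitals mark TGACGTCA, the cyclic AMP response element, which reads the same on both strands.
Cdkn2b, chr4:89311033-89311282, minus strand: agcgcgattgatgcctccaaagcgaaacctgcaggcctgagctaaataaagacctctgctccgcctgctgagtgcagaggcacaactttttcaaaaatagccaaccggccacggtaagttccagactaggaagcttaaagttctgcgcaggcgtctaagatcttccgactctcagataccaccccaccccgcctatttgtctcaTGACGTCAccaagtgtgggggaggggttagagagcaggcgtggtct
TGACGTCA is found in 1.55% of all windows, and this string was added to the search after the sequences were seen. The GC content of the Cdkn2b window is 53.6%. The window of the upstream Cdkn2a start, which gives rise to ARF, has a GC content of 78.4% and holds TTTCCCGC, 1 of the 4 E2F strings searched on both strands (TTTCGCGC, TTTGGCGC, TTTCCCGC and TTTGCCGC), any of which is in 1.86% of windows. That of the downstream start, from which p16 is made, holds none of the E2F strings, no CACGTG and no TGACGTCA. Neither do the windows of Ccne1, Cdkn1b and Ccnd3, which says nothing about the factors themselves.

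**Figure D2:**
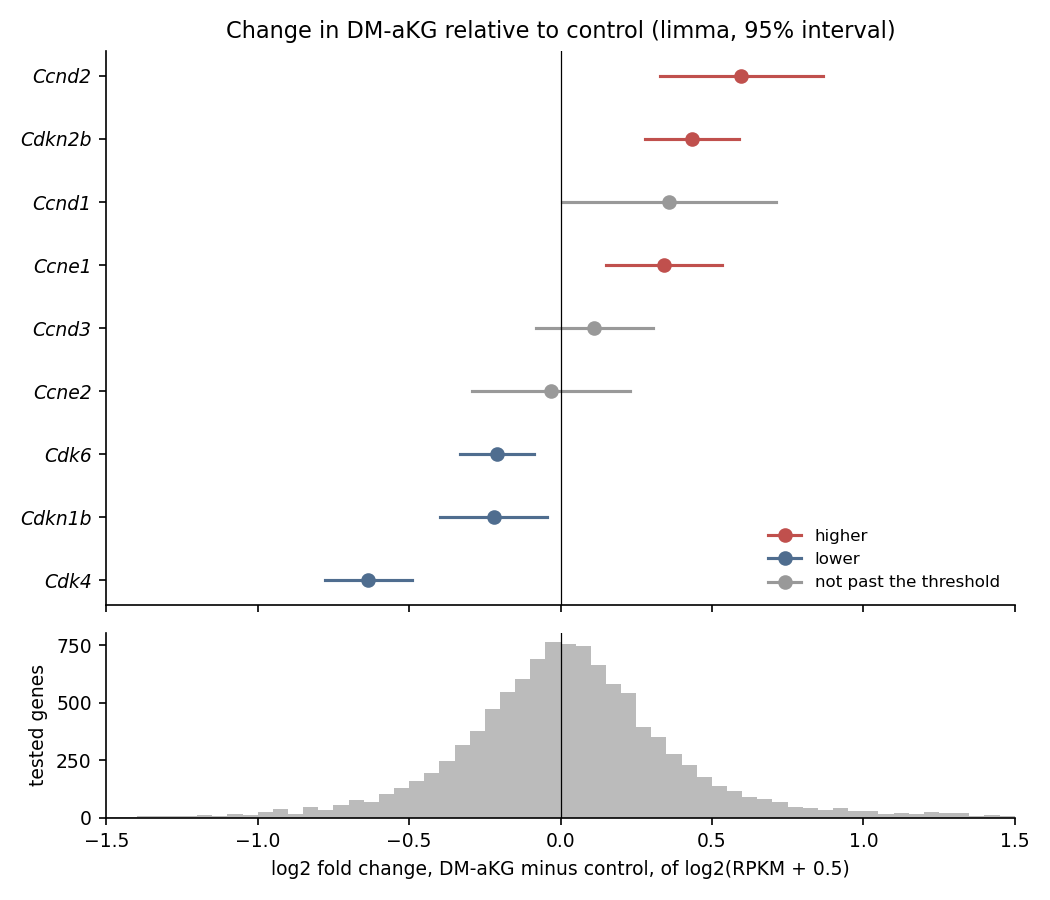
Upper panel, log2 fold change of the 9 tested genes (horizontal axis, DM-aKG minus control) with 95% intervals from limma, red for higher, blue for lower and grey for not past the threshold. The lower panel counts all tested genes per bin of 0.05 over the same axis, with genes beyond 1.5 in size left out of view; Ccnd2 at 0.60 and Cdk4 at -0.63 lie away from the centre of that distribution, and the intervals of Ccnd3 and Ccne2 span 0.

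Summed by role, the D cyclins reached 234, 177 and 177 RPKM in DM-aKG libraries and 134, 136 and 134 RPKM in controls. Ccnd2 supplied 84.5%, 81.8% and 80.65% of that sum in DM-aKG and 78.3%, 79.0% and 78.0% in control. The sum of Cdk4 and Cdk6 went the other way, at 130.5, 115 and 120 RPKM in DM-aKG and 176, 192 and 178 RPKM in control. The ratio of D cyclin RNA to kinase RNA was 1.795, 1.54 and 1.48 in DM-aKG and 0.762, 0.708 and 0.754 in control. This ratio was added after the values were seen, and on the log2 scale it differed by 1.11 between the groups. The exact two-sided permutation test over samples gave p = 0.1, the smallest possible. That outcome was fixed beforehand, because every DM-aKG library had the higher cyclin sum and the lower kinase sum. The ratio concerns RNA, and no protein was measured.

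**Figure D3:**
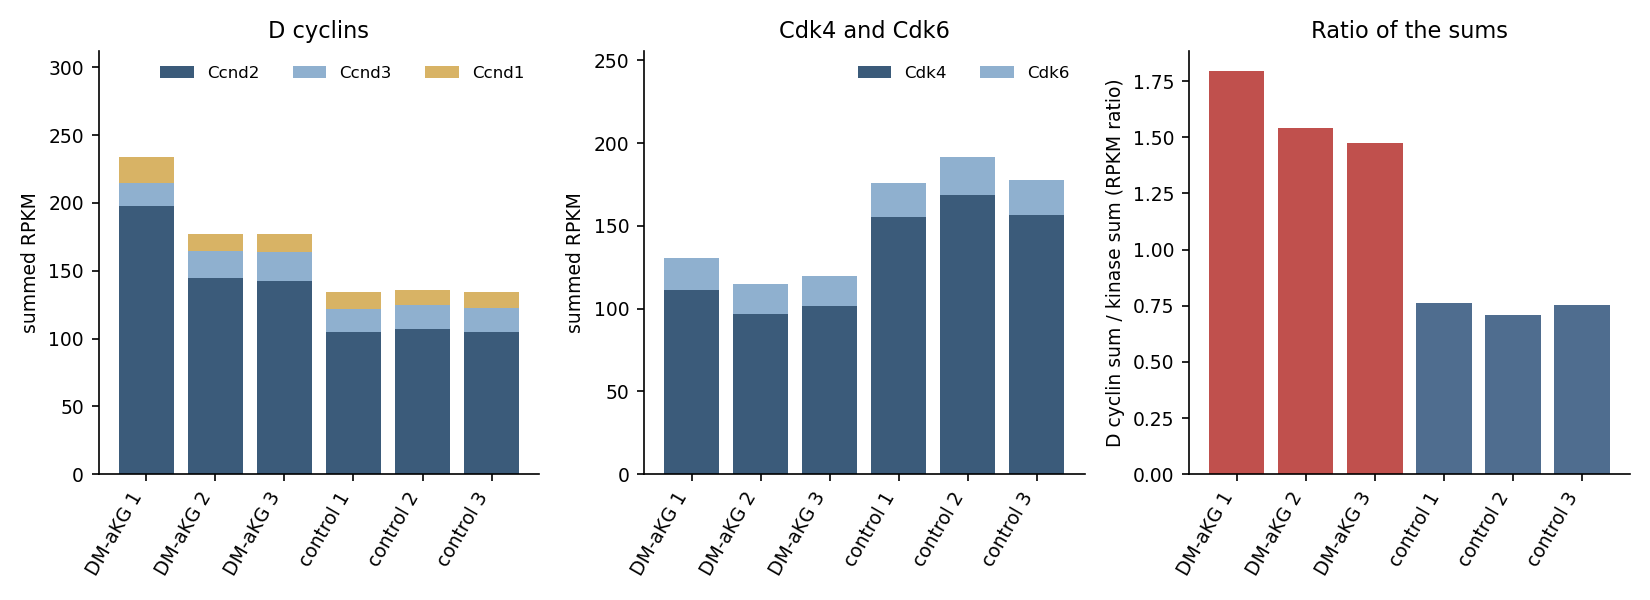
Stacked RPKM of the D cyclins (left) and of Cdk4 with Cdk6 (middle) in each library, and the ratio of the 2 sums (right), DM-aKG libraries left of controls. The ratio lies at 1.48 to 1.795 in DM-aKG and at 0.708 to 0.762 in control.

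Genes of the same role were also set against each other. The comparison took 5 log2 ratios between paralogs and 3 log2 sums, with the exact two-sided permutation test over samples adjusted over the 8 values. By design no p can lie under 0.1, and the lowest adjusted p was 0.114, so none of the 8 passed. The log2 ratio of Cdk4 to Cdk6 was 2.44 ± 0.08 in DM-aKG and 2.87 ± 0.03 in control (SD, n = 3 each), a difference of -0.43 without overlap. The log2 ratio of Ccnd2 to Ccnd3 was 3.03 ± 0.44 in DM-aKG and 2.55 ± 0.04 in control, and the difference of 0.49 was 0.23 without DM-aKG replicate 1. The log2 ratio of Ccne1 to Ccne2 was 0.92 ± 0.16 in DM-aKG and 0.54 ± 0.09 in control, also without overlap. The log2 ratio of Ccnd1 to Ccnd2 was -3.40 ± 0.10 in DM-aKG and -3.16 ± 0.08 in control, so that Ccnd1 made up less beside Ccnd2 in every DM-aKG library. The log2 ratio of Ccnd1 to Ccnd3 overlapped between groups, at 0.24, -0.65 and -0.67 in DM-aKG and -0.51, -0.69 and -0.63 in control, and the difference of 0.25 became -0.05 without DM-aKG replicate 1. The log2 sum of the E cyclins differed by 0.21, with sums of 11.2, 11.2 and 11.3 RPKM in DM-aKG against 10.99, 8.37 and 9.65 RPKM in control, and the difference was 0.12 without control replicate 2.

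The order of levels changed at the top. In DM-aKG Ccnd2 led, followed by Cdk4, and in control Cdk4 led, followed by Ccnd2, with no overlap between the pair within either group. Below them came Ccnd3, Cdk6, Cdkn1b and Ccnd1 in DM-aKG, where the ranges of neighbours overlapped. In control these ran Cdk6, Cdkn1b, Ccnd3 and Ccnd1, and of these neighbours Cdk6 and Cdkn1b overlapped. Cdkn2b, Ccne1, Ccne2 and Cdkn2a followed in this order in both groups, each apart from the next.

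The other genes of the G1 to S step were counted next. Of 23 listed and tested partners, 4 rose, 7 fell and 12 did not pass, with a median log2 fold change of -0.05, beside 0.02 over all tested genes. The 11 called of 23 are no more than the background, where 55.6% were called. Without DM-aKG replicate 2 there were 4 lower, beside 2070 lower genes in all. Cdkn1a, which encodes the CIP and KIP inhibitor p21, was at 128, 184 and 190 RPKM in DM-aKG and at 59.8, 72.9 and 60.5 RPKM in control. It was lowest in replicate 1 among the DM-aKG libraries and far above all controls in each, a log2 fold change of 1.36 ± 0.15 (limma, adjusted p = 2.57e-04). Rb1, the retinoblastoma gene, was at 24.5, 23.0 and 21.8 RPKM in DM-aKG and at 16.8, 14.5 and 15.0 RPKM in control, a log2 fold change of 0.57 ± 0.07 (limma, adjusted p = 3.76e-04). Cdk2, the partner kinase of the E cyclins, was at 12.7, 12.4 and 12.4 RPKM in DM-aKG and at 15.05, 14.6 and 15.6 RPKM in control, and it dropped by 0.26 ± 0.04 in log2 (limma, adjusted p = 0.00161). The other partners that rose were E2f2 and the INK4 gene Cdkn2d, and the others that fell were Cdkn1c, E2f1, E2f6, Tfdp1, Tfdp2 and Mnat1. The RB relatives Rbl1 and Rbl2 had log2 fold changes of 0.05 and -0.06, and neither passed.

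Genes whose products control the stability of cyclins, their kinases and p27 followed. Of 12 tested, 1 rose, 2 fell and 9 did not pass, against 55.6% of all tested genes called, with a median log2 fold change of -0.06. Skp2, the F-box protein that marks p27 for destruction, was at 5.33, 4.49 and 4.20 RPKM in DM-aKG and at 6.99, 6.03 and 6.47 RPKM in control, and it dropped by 0.44 ± 0.09 in log2 (limma, adjusted p = 0.00465). Rnf123, a ubiquitin ligase subunit that acts on p27 in G1, rose to 12.2 ± 0.875 RPKM in DM-aKG, against 7.84 ± 0.228 RPKM in control (limma, adjusted p = 1.76e-04). Cdc37, the co-chaperone that loads CDK4 onto HSP90, fell to 50.2 ± 0.502 RPKM in DM-aKG, against 58.1 ± 2.76 RPKM in control (limma, adjusted p = 0.00525). Without DM-aKG replicate 1, 2 were higher, beside 3674 higher genes in all. With each library rescaled to an equal RPKM sum, 4 were higher, beside 3809 in all.

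Among 13 regulators of the Cdkn2a locus, mostly polycomb proteins that silence it, 2 rose, 3 fell and 8 did not pass, against 55.6% of all tested genes called, with a median of -0.14. Cbx2, a polycomb reader of H3K27 methylation, was at 3.44, 2.73 and 2.81 RPKM in DM-aKG and at 6.09, 5.97 and 6.20 RPKM in control, and it dropped by 0.92 ± 0.08 in log2 (limma, adjusted p = 1.05e-04). Phc1, another polycomb subunit gene, fell to 1.76 ± 0.352 RPKM in DM-aKG, against 2.98 ± 0.139 RPKM in control (limma, adjusted p = 0.00234). The genes that rose are not polycomb members: Kdm6b, which encodes an α-ketoglutarate-dependent H3K27 demethylase, reached 17.4 ± 1.16 RPKM in DM-aKG, against 12.04 ± 1.62 RPKM in control (limma, adjusted p = 0.00236), and Dmtf1 encodes an activator of ARF. Bmi1, which silences Cdkn2a in many cell types, was at 13.1, 8.64 and 8.63 RPKM in DM-aKG and at 13.0, 12.1 and 12.7 RPKM in control (limma, adjusted p = 0.0911). It is named, as Dmtf1 is, after its values were seen. Without DM-aKG replicate 1, 7 were lower, beside 3188 lower genes in all. Without DM-aKG replicate 2 or 3 or control replicate 3, 1 was higher, beside 2801, 2797 and 2689 in all.

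Downstream of G1, replication genes that E2F induces and genes of mitosis were counted as well. Of 22 E2F targets of S phase, 3 rose, 11 fell and 8 did not pass, with a median log2 fold change of -0.20, beside 0.02 over all tested genes. Over all tested genes 55.6% were called, 30.9% as higher and 24.7% as lower, so the 14 called of 22 lie near the background in number. Mcm6, a helicase subunit gene, was at 21.6, 23.0 and 24.1 RPKM in DM-aKG and at 29.4, 31.1 and 29.0 RPKM in control (limma, adjusted p = 7.81e-04). Uhrf1, which maintains DNA methylation, fell to 20.8 ± 0.297 RPKM in DM-aKG, against 26.8 ± 0.533 RPKM in control (limma, adjusted p = 2.36e-04). Rrm2, the ribonucleotide reductase subunit gene, went against the list and was at 67.4, 71.7 and 71.7 RPKM in DM-aKG and at 44.3, 44.1 and 44.2 RPKM in control, a log2 fold change of 0.66 ± 0.04 (limma, adjusted p = 1.85e-05). The other list members that rose were Mybl2 and Cdc45.

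Of 18 genes of G2 and mitosis, 12 rose, 0 fell and 6 did not pass in limma, with a median of 0.24. These counts stand against 30.9% of all tested genes higher and 24.7% lower at the same adjusted threshold, and a median of 0.02. At an unadjusted p under 0.05 in limma there were also 12 higher and 0 lower. Every gene past the adjusted threshold has such a p, so these 12 are the same genes and add no evidence. The S phase list had 3 higher and 13 lower at the unadjusted threshold. The share over all genes was not counted there, so neither count has a background. Aurka, the Aurora A kinase gene, was at 30.2, 30.6 and 28.9 RPKM in DM-aKG and at 19.95, 20.8 and 20.2 RPKM in control, a log2 fold change of 0.55 ± 0.04 (limma, adjusted p = 4.93e-05). Top2a, the topoisomerase gene of dividing cells, rose to 76.4 ± 3.14 RPKM in DM-aKG, against 59.7 ± 1.203 RPKM in control (limma, adjusted p = 4.34e-04). Tpx2, which activates Aurora A on the spindle, rose to 18.0 ± 0.424 RPKM in DM-aKG, against 14.3 ± 0.0872 RPKM in control (limma, adjusted p = 4.12e-04). Without DM-aKG replicate 1 there were 12 higher and 2 lower, beside 3674 higher and 3188 lower genes in all. The summed level of the 18 genes was 562.5 to 646 RPKM in DM-aKG and 495 to 498 RPKM in control, while that of the 22 S phase genes was 497 to 533 RPKM in DM-aKG and 548 to 564 RPKM in control. Such sums lean on their largest genes. Pcna, the largest of the S phase list, was at 128 to 153 RPKM in DM-aKG and 161 to 170 RPKM in control. Ube2c, the largest of the mitosis list, was at 107 to 124 RPKM in DM-aKG and 91.6 to 98.6 RPKM in control.

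**Figure D4:**
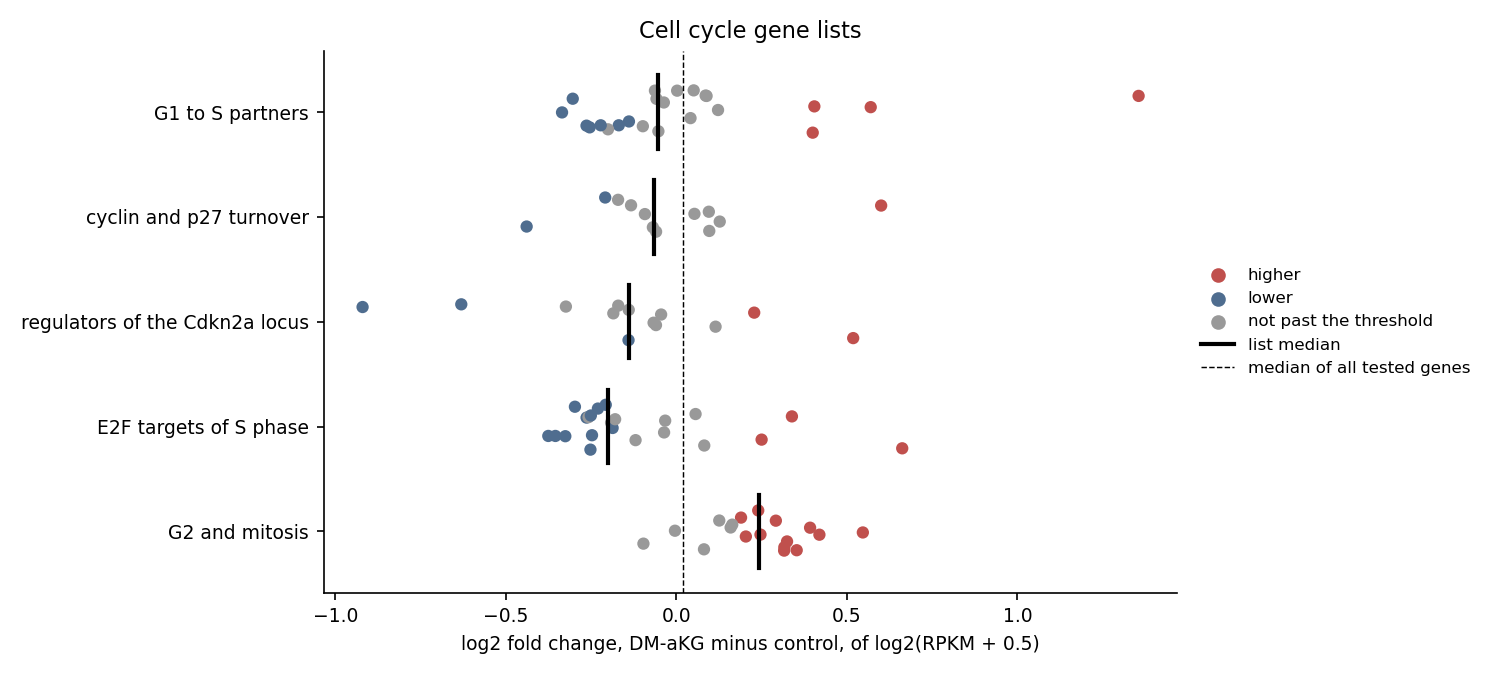
Log2 fold change (horizontal axis, DM-aKG minus control) of every tested gene of the 5 cell cycle lists, red for higher, blue for lower and grey for not past the threshold, with the list median as a thick bar and the median of all tested genes as a dashed line. The median of the S phase genes lies at -0.20 and that of the G2 and mitosis genes at 0.24, and Cdkn1a stands alone at 1.36.

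The genes whose pattern over the 6 libraries was most like that of Ccnd2 were Prr11, Cth and Mbtps2, with a Pearson r of log2(RPKM + 0.5) of 0.998, 0.997 and 0.997. Prr11 was at 9.02, 7.70 and 7.74 RPKM in DM-aKG and at 6.42, 6.46 and 6.45 RPKM in control, with replicate 1 highest as for Ccnd2. For Cdk4 they were Ifitm2, Adra2a and Habp2 with an r of 0.9998, 0.9998 and 0.9991. Ifitm2 was at 72.8, 54.3 and 59.3 RPKM in DM-aKG and at 152, 185 and 160.0 RPKM in control. Adra2a was at 0.68, 0.23 and 0.38 RPKM in DM-aKG and at 2.63, 3.52 and 2.74 RPKM in control. Habp2 was at 0.58, 0.19 and 0.28 RPKM in DM-aKG and at 2.64, 3.63 and 3.06 RPKM in control. At such low levels the added 0.5 weighs on the log2 values. The 6 libraries include the group difference, and 227 tested genes reached 0.95 with Ccnd2 and 1221 with Cdk4.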

How the data were processed

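RNA-seq of Apc Min intestinal organoids was compared between 3 DM-aKG and 3 control cultures. Per the labels, RNA (total) was purified by Qiagen kit; library preparation names TruSeq SR Cluster V3. The submitters' processing notes name CASAVA 1.8, HISAT2 2.0.4, Partek and the build mm10; no source used here says which step each did, which annotation served or how shared reads were handled. The authors deposited RPKM with 2 decimals for 24956 genes, and columns were matched to samples by title. RPKM is relative to each library's reads, so it shows no change in total RNA per cell.

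Values were analysed as log2(RPKM + 0.5), a scale that understates changes of low genes. The 10852 genes with a mean of at least 1 RPKM over all 6 libraries entered limma 3.58.1 in R 4.3.3 (lmFit, then eBayes with trend, two-sided, no replicate term), with Benjamini-Hochberg adjustment over all of them. Ratios used the exact permutation test over samples (scipy 1.17.1). Lists were counted, without a set test. Named genes were the 10 members, up to 3 genes per list ranked by p, and the 3 genes closest in pattern to the steepest riser and faller. The members and lists were chosen with earlier results of these data known. The Paneth list and any other list gene that is named were picked after their values were seen. Depth was estimated from genes of at most 150 bases (RefSeq lengths), by setting as many values as possible to 1 read; 75.5% to 87.5% of other values up to 5 reads then came out whole within 0.05. Counting error alone is covered by such depths. Positions come from GENCODE M21 on GRCm38, the assembly that mm10 names. The procedure was tested on simulated data with independent errors and few changed genes. It was not tested with as many changed genes as were called here. Alternatives covered the pseudocount, filter, scaling, variance model, array weights, threshold, a replicate block and the omission of libraries.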

Additional observations from a re-analysis of the deposited data

How the results depend on the processing

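Of the 9 tested members, Ccnd2, Ccne1, Cdk4 and Cdkn2b kept their direction and their call under all 18 alternatives, with log2 fold changes of 0.44 to 0.68, 0.27 to 0.43, -0.69 to -0.59 and 0.38 to 0.48. Cdk6 lost its call at an adjusted p under 0.01 alone. Cdkn1b lost its call in limma at equal RPKM sums (adjusted p = 0.0833), without a filter (0.0735), without a trend (0.0530) and at the threshold of 0.01, as well as without single libraries. Ccne2, never far from 0, changed sign at equal RPKM sums (0.0032), without DM-aKG replicate 3 (0.0006) and without control replicate 1 (0.0618). It passed as lower, at -0.21, without both control replicate 2 and DM-aKG replicate 1, an alternative chosen after seeing the data. With array weights Ccnd3 passed. The causes were not tested.

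Counts per alternative were as follows. Leaving out each library in turn gave 3 to 5 higher and 2 to 3 lower members, 2689 to 3674 higher and 2059 to 3188 lower genes in all, 4 to 8 lower G1 to S partners, 1 to 2 higher turnover genes, 1 to 2 higher and 2 to 7 lower regulators of the Cdkn2a locus, 2 to 3 higher and 11 to 13 lower S phase genes, and 9 to 13 higher and 0 to 2 lower G2 and mitosis genes. At an adjusted p under 0.01, 1 member, 2 G1 to S partners and 1756 genes in all were lower. At that threshold 7 G2 and mitosis genes, 1 locus regulator and 2418 genes in all were higher. With array weights 2 mitosis genes and 8 locus regulators were lower and 4 turnover genes higher. Calls over all genes were then 4149 higher and 3563 lower. At equal RPKM sums 4 turnover genes were higher, beside 3809 higher and 2254 lower genes in all. Under median centring, as under quantile normalization, 1 locus regulator was higher and 5 lower. Without both control replicate 2 and DM-aKG replicate 1, 2 mitosis genes were lower, 2 turnover genes higher and 7 locus regulators lower. In that fit 3722 genes in all were higher and 3279 lower.

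Deviations of same-numbered libraries from their group means correlated at -0.083, -0.114 and 0.011, so these libraries did not deviate together. Such values cannot settle whether the cultures were paired by design, which no source used here gives. With the replicate block 4 members were higher, as Ccnd1 passed (limma, adjusted p = 0.0381), and 3 were lower. Over all genes 3206 were then higher and 2542 lower. With 3 libraries a group, ratios between genes could not pass a permutation test, and low genes such as Cdkn2a rest on few reads.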

Other observations

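The inhibitor genes were also summed by family, after the values were seen. Cdkn1a, Cdkn1b and Cdkn1c together stood at 151, 204 and 211 RPKM in DM-aKG and at 86.8, 97.1 and 84.45 RPKM in control. Cdkn1b supplied 12.9%, 8.09% and 8.70% of that sum in DM-aKG and 26.7%, 20.95% and 23.7% in control, so p21 RNA rather than p27 RNA made up most of it in every library. The INK4 genes Cdkn2a to Cdkn2d together stood at 24.1, 23.5 and 25.7 RPKM in DM-aKG and at 20.65, 20.7 and 19.5 RPKM in control. Cdkn2b held 49.9%, 46.6% and 47.7% of the INK4 sum in DM-aKG and 42.7%, 43.7% and 40.5% in control, and Cdkn2c, which encodes p18, was at 8.71, 8.92 and 9.60 RPKM in DM-aKG and at 9.19, 8.64 and 9.35 RPKM in control.

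Several cyclin genes share exonic bases with a neighbour on the opposite strand. Ccnd3 shares 361 with Bysl, a ribosome assembly gene that was at 8.94, 9.81 and 9.92 RPKM in DM-aKG and at 7.44, 6.49 and 7.44 RPKM in control. Ccne2 shares 609 with Ints8, an Integrator subunit gene that was at 8.11, 7.33 and 7.33 RPKM in DM-aKG and at 8.77, 8.48 and 8.21 RPKM in control, above Ccne2 in every library. Ccnd1 shares 1100 with Oraov1, which was at 2.65, 2.37 and 2.28 RPKM in DM-aKG and at 2.49, 2.64 and 2.80 RPKM in control.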
